A study of Mus musculus with 8 samples.

Results

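The MHC class II group described here holds 8 of the 43432 mouse genes in the table, chosen by symbol: H2-Aa, H2-Ab1, H2-Eb1, Cd74, H2-DMa, H2-DMb1, H2-DMb2 and Ciita. RNA sequencing was run on 8 libraries of sorted lung cells that carried the epithelial surface protein EpCAM and lacked CD45, the surface protein of leukocytes. All mice were C57BL/6J and 14 weeks old. The C/C libraries (n = 2) came from mice homozygous for ChiaRed, and the C/+ libraries (n = 3) from heterozygous mice. ChiaRed reports Chia1, the gene of acidic mammalian chitinase, and from both genotypes only the ChiaRed+ cells of the gate were taken. The WT libraries (n = 3) came from wild-type mice, which carry no reporter, so the whole gate was taken. C/C and C/+ therefore differed from WT in sorting as well as in genotype, and these cannot be told apart. C/C and C/+ shared the sort and differed in the number of ChiaRed alleles. The labels do not say that each library was a separate animal. The p-values therefore speak only of the spread among the libraries at hand, part of which may be technical.

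MHC class II molecules display peptides from the endosomal route to CD4+ T cells. Each is a pair of an alpha and a beta chain: H2-Aa and H2-Ab1 encode the chains of I-A, and H2-Eb1 encodes the beta chain of I-E. C57BL/6 mice do not make the alpha chain of I-E, so that their surface class II is I-A. Cd74 encodes the invariant chain, which fills the groove of new class II molecules and guides them to endosomes. H2-DMa with H2-DMb1 or H2-DMb2 encodes H2-DM, which exchanges the remnant of the invariant chain for a peptide. Ciita encodes the coactivator that sets class II transcription. It does not bind DNA itself but docks on RFX, CREB and NF-Y proteins at the X and Y boxes of these promoters. Ciita is induced by interferon gamma, and it is read from several promoters used in different cell types. Alveolar type 2 cells, the surfactant-making cells of the alveolus, are among the few cells outside the blood lineages known to carry class II at rest.

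Promoter sequence was at hand for 5 of the 8 genes (H2-Aa, H2-Eb1, H2-DMa, H2-DMb1 and H2-DMb2), from RefSeq on GRCm38.p6, as windows of 250 bases before to 50 bases after an annotated start. The 3 stretches below are shown because they hold the boxes on which Ciita's partners sit. Each runs from 130 to 31 bases before the RefSeq start and lies outside the gene's exons as annotated by GENCODE. They lie at chr17:34287854-34287953 on the minus strand for H2-Aa, chr17:34305737-34305836 on the plus strand for H2-Eb1, and chr17:34145119-34145218 on the plus strand for H2-DMb2. They run 5′ to 3′ along the gene's strand, and capitals mark the letters searched on both strands: TGATTGG, a Y box with its ATTGG core, ACNGATG, the 3′ part of an X1 box, and TGACG, the core of an X2 box.
H2-Aa: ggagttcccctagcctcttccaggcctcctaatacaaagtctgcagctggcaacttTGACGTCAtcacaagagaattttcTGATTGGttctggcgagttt
H2-Eb1: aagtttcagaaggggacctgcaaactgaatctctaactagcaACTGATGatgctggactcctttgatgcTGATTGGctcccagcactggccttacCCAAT
H2-DMb2: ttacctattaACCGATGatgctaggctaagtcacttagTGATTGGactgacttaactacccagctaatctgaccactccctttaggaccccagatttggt
In H2-Eb1 the X1 letters began 88 bases before the start and were followed, after 20 bases, by the Y box at 61. In H2-DMb2 they began at 120, with 21 bases to the Y box at 92. That start is the RefSeq one. GENCODE places H2-DMb2 at 34143307 to 34151555, so that the printed stretch lies inside the gene there, in none of its exons. H2-DMb1 had the same arrangement, with X1 letters at 91, 21 bases between, and the Y box at 63; 89 of the 100 bases of that stretch lie in its annotated first exon, and it is not printed. H2-Aa had the Y box at 50 and X2 letters on both strands at 74 and 71, which overlap, and no X1 letters in that stretch. Of the 2 H2-DMa windows, 1 held ATTGG, at 198 bases before the start, and neither held the other letters.
Over all 32851 windows of the table, 37.4% held ATTGG, 7.82% TGATTGG, 9.85% ACNGATG and 20.8% TGACG, and 1.9% held both TGACG and TGATTGG. X1 letters followed by TGATTGG within 40 bases stood in 16 windows, 0.0487%, of which H2-Eb1, H2-DMb1, H2-DMb2 and the related H2-Eb2 were 4. A match of letters does not show binding, and the windows say nothing about use in these cells.

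Total counts were 46478577 and 41950581 in C/C, 17057216 to 30190458 in C/+ and 20232091 to 52319957 in WT. Values are counts scaled to a common library total with TMM factors (CPM). Chia1 stood at 1.45 and 0.365 CPM in C/C, against 223 to 341 CPM in C/+ and 267.5 to 454 CPM in WT. Alveolar type 2 markers dominated: the 12 genes fixed for that type summed to 261100 to 267300 CPM in C/C, 230000 to 237700 CPM in C/+ and 197400 to 224300 CPM in WT, with 0 called by edgeR in any comparison; 2, 1 and 4 of the 12 had an unadjusted p under 0.05 in C/+ against WT, C/C against C/+ and C/C against WT, and DESeq2 called 1, 0 and 3. The libraries differed in ways that touch the results. Xist and Y-linked counts marked both C/C libraries, C/+ 2, C/+ 3 and WT 1 as female, and C/+ 1, WT 2 and WT 3 as male, a trait the labels do not give; sex and genotype are thus partly confounded. Markers of cells other than type 2 cells were high in C/+. The 7 club cell markers summed to 5395 to 5829 CPM in C/C, 9549 to 14250 CPM in C/+ and 4636 to 5909 CPM in WT, the 7 endothelial markers to 33.5 to 38.7, 413 to 711 and 48.3 to 205 CPM in the same order, and the 4 measured mesothelial markers to 4.82 to 6.36, 50.9 to 154 and 6.57 to 23.6 CPM. Between C/+ and WT edgeR called 6 of 7, 7 of 7 and 3 of 4 of these higher, beside 3.42% of all tested genes. Between C/C and C/+ it called 6 of 7, 7 of 7 and 4 of 4 lower, beside 5.33%. Between C/C and WT it called 1, 1 and 0 lower, beside 1.36%, with 3, 6 and 0 unadjusted p-values under 0.05. DESeq2 called 2, 4 and 0 lower there, beside 5.34%. Cbr2, the club marker called in no comparison, made up most of the club sum in C/C and WT. It averaged 5033 CPM in C/C, 4705 CPM in C/+ and 4532 CPM in WT. Scgb1a1, another club marker, averaged 446, 5966 and 468 CPM in the same order. The part of the club, endothelial and mesothelial markers in the class II values was not tested.

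Class II RNA was abundant in every library. The 8 genes together made up 7648 to 8399 CPM in C/C, 5714 to 7425 CPM in C/+ and 6175 to 8493 CPM in WT, and the ranges of C/C and C/+ did not overlap, while each overlapped or lay within that of WT. To compare genes with each other, CPM were divided by the length of the union of a gene's annotated exons. On that scale (CPM per kb) Cd74 led with 3234 ± 131 in C/C (SD, n = 2), 2565 ± 317 in C/+ and 2936 ± 421 in WT (SD, n = 3 each). In WT it ranked 11th of 14802 tested genes with a length. The 3 classical chain genes followed in WT at 318 ± 59.2 for H2-Aa, 295 ± 71.8 for H2-Ab1 and 247.5 ± 50.5 CPM per kb for H2-Eb1 (SD, n = 3). Their ranges over WT libraries overlapped, so their order was not resolved between libraries; within each of the 8 libraries H2-Aa was the highest and H2-Eb1 the lowest of the 3. The lead of H2-Aa over H2-Ab1 depended on the length used, since with the longest transcript H2-Aa stood at 375 and H2-Ab1 at 625 CPM per kb in WT.
The H2-DM genes and Ciita were far lower on the same scale. H2-DMb1 stood at 61.4 ± 15.8, H2-DMa at 25.5 ± 4.36, Ciita at 4.79 ± 0.568 and H2-DMb2 at 2.22 ± 0.52 CPM per kb in WT (SD, n = 3). None of these 4 overlapped its neighbour in this order over the WT libraries on that scale. The gap between H2-DMb1 and H2-DMa depended on the length used. With the coding length, 783 bases for both, they stood at 132 and 112 CPM per kb in WT and their libraries overlapped. Ciita ranked 8553rd in C/C, 7571st in C/+ and 6283rd in WT by this level, so that the regulator sat in the middle of the expressed genes, while Cd74 ranked 13th, 17th and 11th.

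Ciita, the transcriptional coactivator, fell in each comparison, and the order of the groups held in every library. It had 21.9 and 21.2 CPM in C/C, 29.9, 31.3 and 34.3 CPM in C/+, and 40.3, 51.1 and 45.6 CPM in WT. Both C/C libraries lay below all C/+ libraries, and these below all WT libraries, an order that 149 of the 14906 tested genes showed. The group means were 21.5 ± 0.496 CPM in C/C (SD, n = 2), 31.9 ± 2.28 CPM in C/+ and 45.7 ± 5.42 CPM in WT (SD, n = 3 each). The counts behind these values were 954 and 813 in C/C, 584 to 915 in C/+ and 1078 to 2450 in WT.
A gene was called where the Benjamini-Hochberg adjusted p of edgeR's quasi-likelihood test, adjusted over all tested genes, was under 0.05. Changes are given on the log2 scale (log2FC), each with its standard error (SE). Ciita's log2FC was -0.52 (SE 0.11, adjusted p = 0.0331) for C/+ against WT and -0.56 (SE 0.13, adjusted p = 0.0243) for C/C against C/+. Between C/C and WT it was -1.08 (SE 0.13, adjusted p = 0.00363), a level 0.472 of that in WT, and Ciita ranked 24th of all tested genes by adjusted p. With sex as a covariate the 3 values were -0.49, -0.54 and -1.04 (edgeR adjusted p = 0.0247, 0.0275 and 0.00491). In bulk RNA, fewer cells with Ciita and less Ciita RNA per cell cannot be told apart.
The calls rested on few libraries, while the sign did not. For C/+ against WT the edgeR adjusted p was 0.061 without C/C 1, 0.0608 without C/C 2, 0.123 without C/+ 1, 0.101 without C/+ 2, 0.114 without WT 2 and 0.102 without WT 3, with log2FC between -0.52 and -0.43; without C/+ 3 or WT 1 the call held. In C/C against C/+ it was 0.182 without C/C 1, 0.19 without C/C 2 and 0.056 without C/+ 2. In C/C against WT it was 0.0699 without C/C 1 and 0.0719 without C/C 2. In female libraries alone, with 1 WT library, the log2FC of C/+ against WT was -0.30 (adjusted p = 0.395) and those of C/C against C/+ and against WT were -0.58 and -0.88 (adjusted p = 0.0401 and 0.0206), beside 0.137%, 3.98% and 2.57% of tested genes called lower there. Ciita's exons overlap those of Dexi on the other strand by 329 bases, and the strand setting of the counting is not given in the sources used here. Dexi had 19.6 and 22.8 CPM in C/C, 18.2 to 21.4 CPM in C/+ and 17.6 to 20.3 CPM in WT, with log2FC of 0.08 to 0.17 in the 3 comparisons and adjusted p of 0.494 to 0.784. Counts per gene do not show which Ciita promoter was used.

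**Figure D1:**
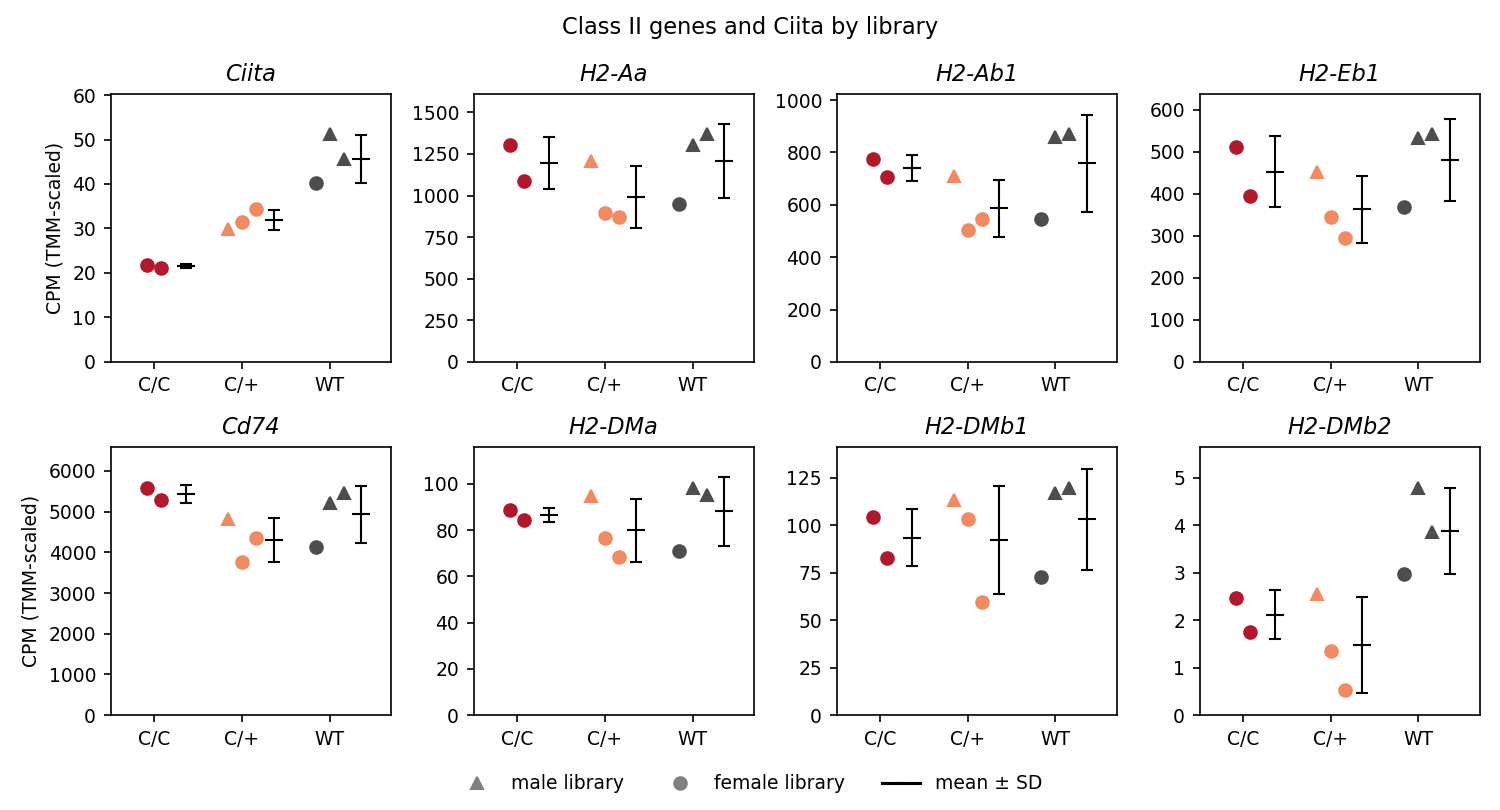
TMM-scaled CPM of each gene (linear axes from 0) in the C/C, C/+ and WT libraries; triangles are male and circles female libraries, and the bar beside them is the mean ± SD (n = 2, 3 and 3). Ciita steps down without overlap to 21.2 to 21.9 CPM in C/C, against 29.9 to 34.3 CPM in C/+ and 40.3 to 51.1 CPM in WT, whereas the male libraries are the high ones within C/+ and WT for the other 7 genes.

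The other 7 genes were not called, though in C/+ against WT they had the same sign as Ciita; whether their changes differ from that of Ciita was not tested. In no comparison was 1 of them called by edgeR, so that 1 of 8 genes was called lower and 0 higher each time. Of all tested genes, 0.503% were called lower and 3.42% higher in C/+ against WT, 5.33% and 1.75% in C/C against C/+, and 1.36% and 1.62% in C/C against WT. The same shares apply to the edgeR calls of every gene list from the fit to the groups alone. Unadjusted p-values under 0.05 were found for 2, 2 and 1 of the 8. The share of all tested genes under that unadjusted threshold was not counted, for these genes or for any gene list. The DESeq2 Wald test called 2, 1 and 1 lower, beside 2.37%, 7.78% and 5.34% of all tested genes, and H2-DMb2 was the gene added in C/+ against WT. Between C/+ and WT the log2FC was negative for 8 of 8 genes with a median of -0.33, beside 0.00 over all tested genes. Between C/C and C/+ it was positive for 7 of 8 with a median of 0.29, beside -0.01 over all genes, and H2-DMb1, at 0.02, turned to -0.08 under scaling by type 2 markers. Between C/C and WT it was negative for 7 of 8 with a median of -0.06, beside -0.03 over all genes. The first and second of these comparisons share the C/+ libraries. Libraries did not overlap for 2 of 8 genes in each comparison (24.8%, 38.3% and 43.3% of all tested genes), which were H2-DMb2 and Ciita for both comparisons with WT and Cd74 and Ciita for C/C against C/+.

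**Figure D2:**
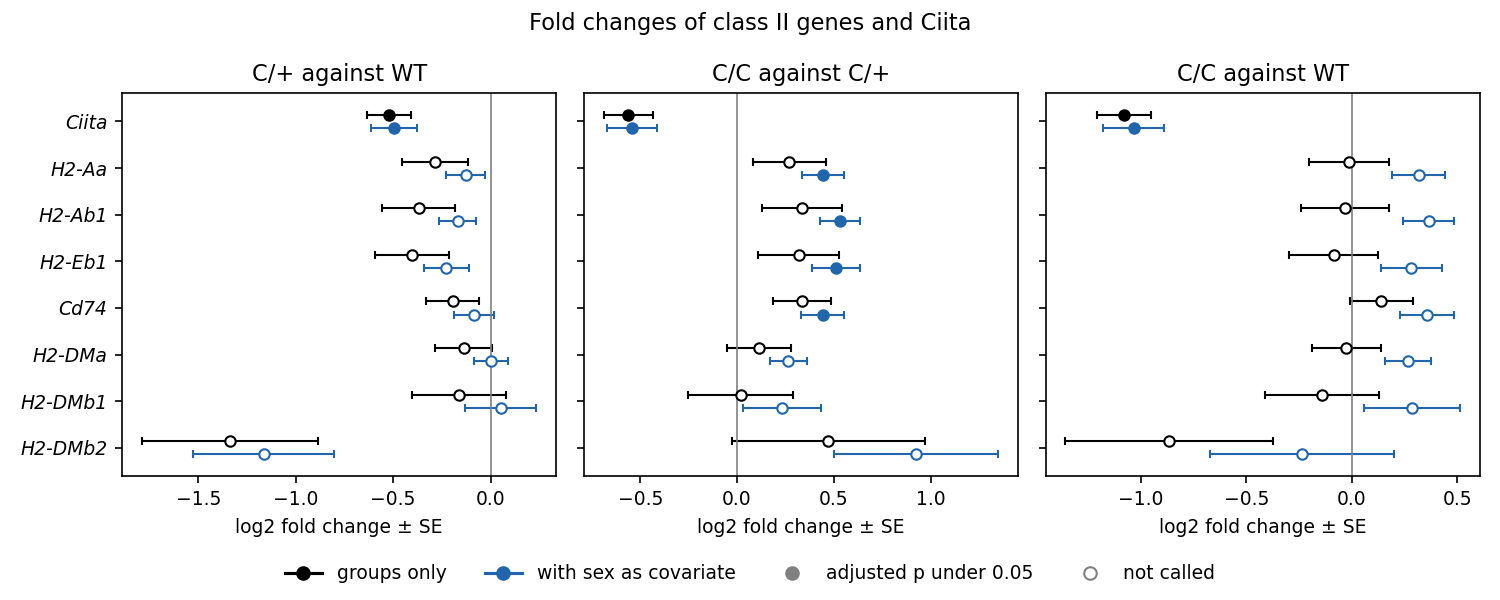
Log2 fold change ± SE of each gene (rows) in the 3 comparisons (panels), from edgeR fitted to the groups alone (black) and with the sex of the library as covariate (blue); filled points have an adjusted p under 0.05 and open points were not called. Ciita is left of 0 and filled in all 6 cases, and with sex in the model H2-Aa, H2-Ab1, H2-Eb1 and Cd74 move right to 0.44 to 0.53 in C/C against C/+ and are filled.

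Among the classical chains, H2-Ab1, the I-A beta chain gene, had 776.5 and 704 CPM in C/C, 710.1, 505 and 544 CPM in C/+, and 545, 859.7 and 869 CPM in WT. C/C values thus lay inside the WT range, and C/+ 1 lay with C/C rather than with the other C/+ libraries. The log2FC was -0.37 for C/+ against WT (95% interval -0.78 to 0.04, edgeR adjusted p = 0.299), 0.34 for C/C against C/+ (-0.12 to 0.79, adjusted p = 0.404) and -0.03 for C/C against WT (-0.49 to 0.43, adjusted p = 0.95). The intervals leave room for changes of either sign.
H2-Aa, the I-A alpha chain gene, had 1307 and 1085 CPM in C/C, 1207, 898 and 869 CPM in C/+, and 951, 1306 and 1367 CPM in WT. Its libraries ran in nearly the order of those of H2-Ab1, and all groups overlapped. The log2FC was -0.29 for C/+ against WT, 0.27 for C/C against C/+ and -0.01 for C/C against WT (SE 0.17 to 0.19, edgeR adjusted p = 0.388, 0.477 and 0.975).
H2-Eb1 had 512 and 394 CPM in C/C, 451, 344 and 296 CPM in C/+, and 368, 534 and 542 CPM in WT. The groups again overlapped, with C/+ 3 the lowest library. The log2FC was -0.40 for C/+ against WT, 0.32 for C/C against C/+ and -0.09 for C/C against WT (SE 0.19 to 0.21, edgeR adjusted p = 0.267, 0.447 and 0.856). H2-Eb1 RNA was thus abundant here, although C57BL/6 mice lack its partner chain: H2-Ea-ps, the pseudogene left of that chain, had 1 count in all 8 libraries together. H2-Eb2, a relative of H2-Eb1 that shares 77.9% of 779 aligned transcript positions with it, had 0.734 and 0.469 CPM in C/C, 0.327 to 0.881 CPM in C/+ and 1.27 to 1.38 CPM in WT.

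Cd74, the invariant chain gene, had 5586 and 5275 CPM in C/C, 4817, 3753 and 4347 CPM in C/+, and 4125, 5213 and 5451 CPM in WT. Both C/C libraries were above all C/+ libraries, and the WT range overlapped both groups. The log2FC of C/C against C/+ was 0.34 (95% interval 0.00 to 0.67, edgeR adjusted p = 0.234, 0.0485 unadjusted), that of C/+ against WT -0.20 (SE 0.14, adjusted p = 0.465) and that of C/C against WT 0.14 (SE 0.15, adjusted p = 0.636). Counts of Cd74 were 73919 to 293159 per library, so that counting error was small beside the spread between libraries. A microRNA gene, Mir5107, lies in Cd74 on the same strand and shares 12 exonic bases with it, and its 2 to 546 counts per library are few beside these.

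The genes of H2-DM split by level. H2-DMa, the alpha chain, had 88.6 and 84.4 CPM in C/C, 94.7, 76.7 and 68.3 CPM in C/+, and 70.8, 98.3 and 95.1 CPM in WT. H2-DMb1, the more abundant beta chain, had 104 and 82.7 CPM in C/C, 113, 103 and 59.7 CPM in C/+, and 72.6, 117 and 119.8 CPM in WT. For both genes C/C lay within the ranges of C/+ and of WT, and the lowest libraries were C/+ 3 and WT 1. Their log2FC ran from -0.16 to 0.11 over the 3 comparisons (SE 0.15 to 0.27), with edgeR adjusted p of 0.644 to 0.984.
H2-DMb2 had 2.48 and 1.75 CPM in C/C, 2.55, 1.35 and 0.529 CPM in C/+, and 2.97, 4.79 and 3.87 CPM in WT. All libraries with the reporter were below all WT libraries. Its log2FC was -1.34 for C/+ against WT (95% interval -2.34 to -0.34, edgeR adjusted p = 0.13), 0.47 for C/C against C/+ (SE 0.50, adjusted p = 0.663) and -0.87 for C/C against WT (-1.96 to 0.23, adjusted p = 0.333). It rests on 108 and 67 counts in C/C, 9 to 78 in C/+ and 101 to 208 in WT. The DESeq2 Wald test called it for C/+ against WT with a log2FC of -1.35 (adjusted p = 0.0408), and so did edgeR with no low-count filter (-1.35, adjusted p = 0.0125), beside 1.56% of the genes then tested that were called lower. H2-DMb1 and H2-DMb2 share 87.3% of 1157 aligned transcript positions, with an identical run of 221 bases, and how reads matching both were counted is not given in the sources used here, so that the H2-DMb2 values are uncertain. H2-DMa overlaps Brd2 on the other strand by 360 exonic bases, and Brd2, at 250 to 304 CPM, was not called in any comparison (edgeR adjusted p = 0.465 to 0.941).

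The libraries of a group were not alike for these 7 genes, and the male libraries were the high ones. For 7 of the 8 genes the male libraries (C/+ 1, WT 2 and WT 3) were above the female ones both within C/+ and within WT, a pattern that 17.4% of all tested genes showed. Ciita was the exception, with its lowest C/+ value in the male library. In the fit with sex as covariate the male against female log2FC was 0.31 for Cd74, 0.42 for H2-DMa, 0.47 for H2-Aa, 0.52 for H2-Eb1, 0.55 for H2-Ab1, 0.59 for H2-DMb1 and 0.93 for H2-DMb2, against 0.07 for Ciita. No gene of the 8 was called for sex by edgeR, with adjusted p from 0.0612 (H2-Ab1) to 0.8 (Ciita), beside 0.121% of all tested genes called. At the looser threshold of an unadjusted p under 0.05 there were 7 of the 8. The share of all tested genes under that looser threshold was not counted. This contrast was added after the data were seen, and it rests on 3 male libraries, of which 1 was C/+ and none C/C. Other traits of C/+ 1 and WT 1 cannot be told apart from sex in groups of this size.
The leukocyte gene Ptprc, which encodes CD45, was low, at 0.252 and 0.182 CPM in C/C, 0.118 to 1.80 CPM in C/+ and 0.298 to 1.50 CPM in WT. It was highest in C/+ 1 and WT 1. For the 7 class II genes other than Ciita, C/+ 1 was the highest library of its group and WT 1 the lowest of its group.

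**Figure D3:**
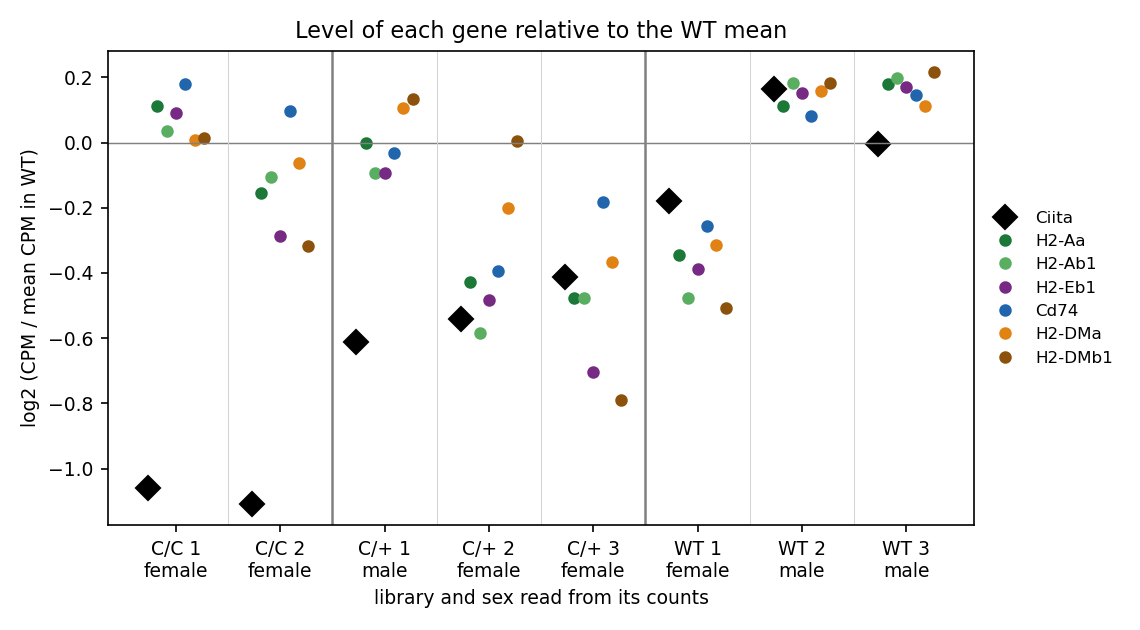
Log2 ratio of CPM to the mean CPM in WT for Ciita (black diamonds) and 6 class II genes (circles) in each library, with H2-DMb2 left out because its counts are low; the sex read from the counts stands under each library. Ciita is near -1.1 in both C/C libraries while the other genes lie between -0.32 and 0.18 there, and female libraries lie lower than male ones within C/+ and within WT for the other genes.

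With sex in the model, the count of class II genes called changed in the comparison of C/C with C/+ alone. There, 5 of the 8 genes were called, 4 of them higher, beside 2.55% of all tested genes called higher and 5.50% called lower. H2-Ab1 had a log2FC of 0.53 (SE 0.10, edgeR adjusted p = 0.00957), H2-Aa 0.44 (SE 0.11, 0.0317), H2-Eb1 0.51 (SE 0.13, 0.0326) and Cd74 0.44 (SE 0.11, 0.0361), while Ciita stayed lower at -0.54 (adjusted p = 0.0275). H2-DMa, H2-DMb1 and H2-DMb2 had 0.26, 0.23 and 0.92 (adjusted p = 0.133, 0.548 and 0.23). In the female libraries alone the values were close in size, with 0.52 for H2-Ab1 (edgeR adjusted p = 0.0466, called, beside 1.64% of tested genes called higher), 0.46 for H2-Aa (0.103), 0.53 for H2-Eb1 (0.101) and 0.45 for Cd74 (0.121). Female C/C libraries were above both female C/+ libraries for 6 of 8 genes, all but H2-DMb1 and Ciita, beside 23.1% of all tested genes. Since the C/C group has no male library, whether its class II level depends on sex cannot be told from these data.
For C/+ against WT the covariate moved 6 of the other genes toward 0, with edgeR adjusted p of 0.228 to 0.991. H2-Ab1 had -0.17 (SE 0.096) and H2-Eb1 -0.23 (SE 0.115), so that both stayed negative. H2-Aa had -0.13 (SE 0.099), Cd74 -0.09 (SE 0.103), H2-DMa 0.00 (SE 0.087) and H2-DMb1 0.05 (SE 0.184). H2-DMb2 was at -1.16 (edgeR adjusted p = 0.0645), and 1 of 8 genes, Ciita, was called, beside 4.38% of tested genes called lower. Between C/C and WT it gave 0.37 for H2-Ab1, 0.32 for H2-Aa, 0.28 for H2-Eb1 and 0.36 for Cd74 (edgeR adjusted p = 0.081, 0.13, 0.236 and 0.104), and again Ciita alone was called, beside 4.76% called lower. The signs of H2-Aa, H2-Ab1, H2-Eb1, H2-DMa and H2-DMb1 in that comparison therefore differ between the 2 fits.

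Levels were also set against that of Ciita in the same library, a ratio that carries the fall of Ciita with it. The per kb level of H2-Ab1 was 132 and 123 times that of Ciita in C/C, 88.3, 59.9 and 58.8 times in C/+, and 50.2, 62.4 and 70.8 times in WT. For Cd74 the ratio was 1449 and 1414 in C/C, 916, 680 and 719 in C/+, and 581, 579 and 679.5 in WT. Because Ciita was lowest in C/C, a gene with equal CPM in every library would also have its highest ratios there. Both C/C libraries were above all others for 6 of the 7 genes, an order whose share over all tested genes was not counted. The exception was H2-DMb2, with ratios of 0.618 and 0.450 in C/C, 0.465, 0.235 and 0.0841 in C/+, and 0.403, 0.511 and 0.463 in WT. C/+ and WT overlapped for H2-Ab1, while for Cd74 the lowest C/+ and the highest WT ratio were nearly equal.
The likeness of patterns was measured over the 8 libraries. There, the root mean square difference between centred log2 CPM was 0.08 between H2-Ab1 and H2-Aa, 0.11 between H2-Ab1 and H2-Eb1 and 0.13 between H2-Ab1 and Cd74. It was 0.26 between H2-Ab1 and H2-DMb1 and 0.72 between H2-Ab1 and H2-DMb2, which lay farther from H2-Ab1 than Ciita did, at 0.48. Between Ciita and the 7 others it was 0.45 to 0.83. Among the 8402 tested genes that averaged 10 CPM or more, the closest to H2-Ab1 outside the group were Bcan (0.10), Fam221a (0.13), Acsf3 (0.13), Rnf11 (0.13) and Slc35e4 (0.14). Closest to H2-Eb1 were Acsf3 (0.09), Col16a1 (0.11), Mapk8ip1 (0.12), Smarca5 (0.12) and Sdc1 (0.13). For Ciita they were Zfp704 (0.14), Ano1 (0.16), Il1r1 (0.17), Klhdc7a (0.17) and Ndst1 (0.18). Zfp704 averaged 69.6 CPM in C/C, 99.5 CPM in C/+ and 128 CPM in WT. These lists describe likeness over 8 libraries that share groups and sexes, with no test.

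The proteins on which Ciita docks were measured in every library. The 8 genes Rfx5, Rfxap and Rfxank (RFX subunits), Nfya, Nfyb and Nfyc (NF-Y subunits), Creb1 and Atf1 had 0 called of 8 in each comparison by edgeR and by DESeq2, with 0 unadjusted p-values under 0.05. Their median log2FC was -0.08 for C/+ against WT, 0.02 for C/C against C/+ and -0.01 for C/C against WT. Creb1, a factor of the X2 box, had 46.4 and 44.7 CPM in C/C, 41.6 to 48.6 CPM in C/+ and 42.3 to 57.5 CPM in WT. Nfya had 40.8 and 38.4 CPM in C/C, 39.3 to 43.2 CPM in C/+ and 41.0 to 54.9 CPM in WT.
Of 9 genes on the route from interferon gamma to Ciita (among them Ifngr1, Ifngr2, Jak1, Jak2, Irf1, Irf2, Socs1 and Usf1) 1 rose, in C/C against C/+, and 0 fell. This was Irf2, an interferon regulatory factor, with 80.8 and 86.7 CPM in C/C, 56.0, 56.2 and 61.7 CPM in C/+, and 76.9, 55.0 and 57.5 CPM in WT (log2FC 0.53, SE 0.14, edgeR adjusted p = 0.0491). Both C/C libraries were above all C/+ libraries and above all WT libraries. Of all tested genes, 38.3% had no overlap between C/C and C/+ and 43.3% none between C/C and WT, in either direction. In the comparisons of C/+ and of C/C with WT 0 of 9 were called by edgeR or DESeq2, with 1 unadjusted p under 0.05 each.

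Of 7 tested genes for peptide loading and class II turnover 1 was called by edgeR, in C/C against WT, where DESeq2 called 2, Ifi30 as higher and Ctss as lower. Ifi30, the thiol reductase that opens disulfide bonds of antigens in endosomes, had 232 and 269.9 CPM in C/C, 193, 195 and 214 CPM in C/+, and 174, 159 and 166 CPM in WT. The 3 groups did not overlap, in the reverse of the order of Ciita. How many genes showed this rising order was not counted. Libraries did not overlap, in either direction, for 24.8% of all tested genes in C/+ against WT, 38.3% in C/C against C/+ and 43.3% in C/C against WT. Ifi30 rose in C/C against WT (log2FC 0.60, SE 0.11, edgeR adjusted p = 0.0242). It was at 0.27 for C/+ against WT (adjusted p = 0.148) and 0.32 for C/C against C/+ (adjusted p = 0.11, called by DESeq2). In C/+ against WT and C/C against C/+ 0 of 7 were called by edgeR, with 1 unadjusted p under 0.05 each, and DESeq2 called 0 and 1. Of the proteases that degrade the invariant chain, Ctss, the one of professional antigen-presenting cells, had 0.298 and 0.0782 CPM in C/C, 0.233 to 1.67 CPM in C/+ and 0.484 to 2.35 CPM in WT (C/C against WT edgeR adjusted p = 0.113), on 13 and 3 counts in C/C. Ctsl, which does this in thymic epithelium, had 114 and 97.2 CPM in C/C, 85.8 to 118 CPM in C/+ and 77.9 to 108 CPM in WT. Ctsb, a lysosomal protease, had 563 and 596 CPM in C/C, 521 to 581 CPM in C/+ and 503 to 519 CPM in WT. March1, a ubiquitin ligase that removes class II from the surface of dendritic cells, had at most 8 counts in a library, whereas its relative March8 had 80.3 and 69.4 CPM in C/C, 67.1 to 79.9 CPM in C/+ and 83.2 to 91.1 CPM in WT.
H2-Oa and H2-Ob, whose product holds H2-DM back in B cells, had at most 12 and 23 counts in a library. Of this list of other class II region genes 2 were tested, H2-Ob and H2-Eb2, and 0 were called by edgeR or DESeq2, with 1, 0 and 1 unadjusted p-values under 0.05 in C/+ against WT, C/C against C/+ and C/C against WT.

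**Figure D4:**
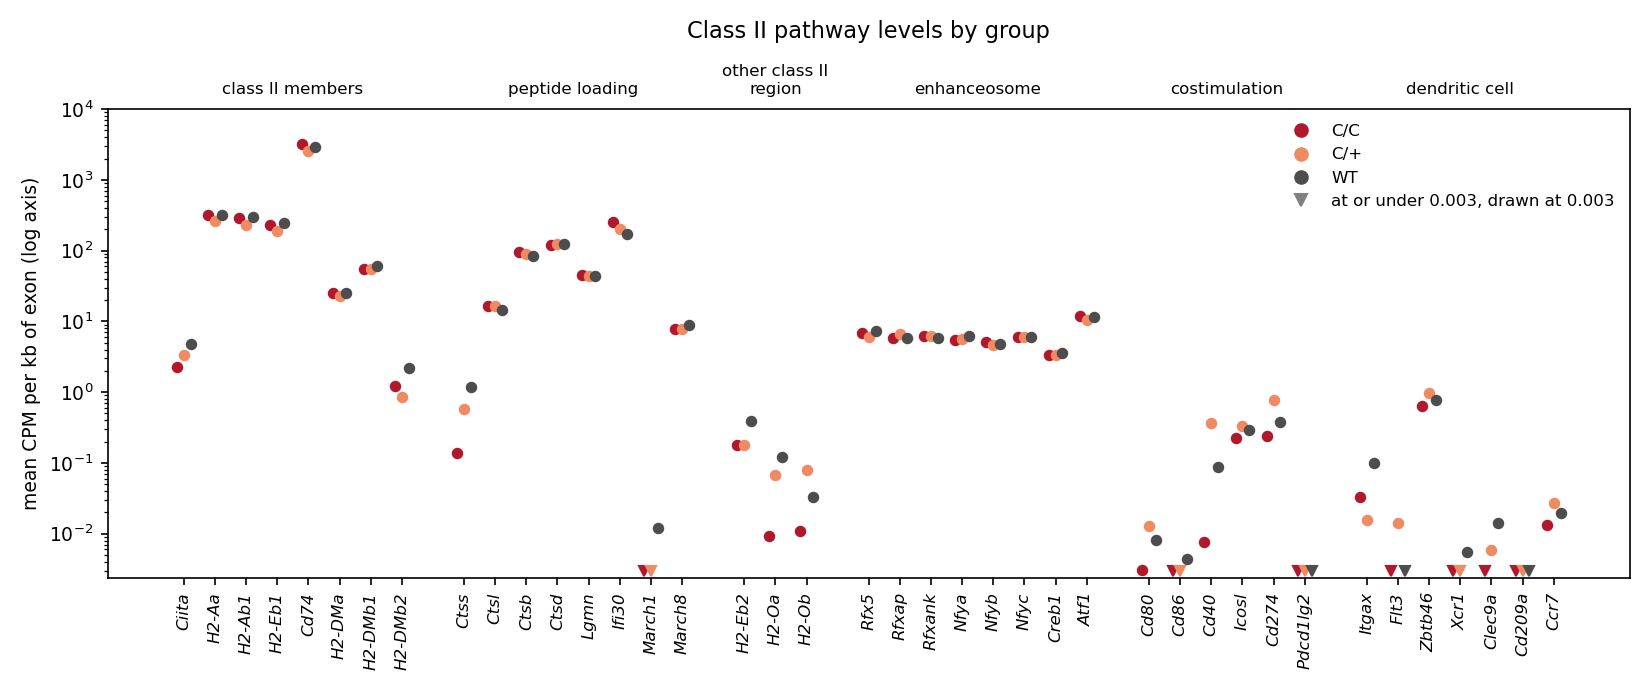
Mean CPM per kb of exon (log axis) in C/C, C/+ and WT, left to right at each gene, for the class II genes, peptide loading genes, other genes of the class II region, the factors of the X and Y boxes (enhanceosome), costimulation genes and dendritic cell markers; triangles mark means at or under 0.003, drawn there. Cd74 stands between 2565 and 3234 and Ciita between 2.26 and 4.79, the enhanceosome genes lie between 3.31 and 11.9, and costimulation and dendritic cell genes lie at or below 1.

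Genes of class I presentation, which is set by the related coactivator Nlrc5, had 1 of 9 called by edgeR, in C/C against C/+. There 3 of 9 had an unadjusted p under 0.05, and DESeq2 called 2 lower, Tap1 and Nlrc5. Tap1 had an edgeR log2FC of -0.51 against C/+ and -0.625 against WT (adjusted p = 0.0715 and 0.0515). Nlrc5 had 1.97 and 2.03 CPM in C/C, 6.10, 9.84 and 4.12 CPM in C/+, and 5.09, 5.36 and 4.72 CPM in WT (C/C against C/+ log2FC -1.74, SE 0.34, edgeR adjusted p = 0.0113; C/C against WT -1.33, adjusted p = 0.0603). Both C/C libraries were below the rest, beside 38.3% of all tested genes without overlap in C/C against C/+ and 43.3% in C/C against WT, in either direction. B2m, the class I light chain gene, had 373 and 451 CPM in C/C, 495 to 555 CPM in C/+ and 367 to 471 CPM in WT, and H2-K1, a class I heavy chain gene, had 819 and 860.1 CPM in C/C, 729 to 802 CPM in C/+ and 807 to 1019 CPM in WT. In C/+ against WT and C/C against WT 0 of 9 were called by edgeR, with 2 unadjusted p-values under 0.05 each, while DESeq2 called 0 and 2.
The costimulation and checkpoint genes with which professional antigen-presenting cells engage T cells were low, and Cd80, Cd86 and Pdcd1lg2 were near the floor. Cd86 had at most 1 count and Cd80 at most 3 in a library, and Pdcd1lg2 had none in any, which allows up to 0.0558 to 0.176 CPM (3 counts of a library's total, counting error only). Cd274, encoding PD-L1, had 0.643 and 1.12 CPM in C/C, 1.24 to 3.92 CPM in C/+ and 0.855 to 1.76 CPM in WT. Cd40 was the 1 called by edgeR of 3 tested, in C/C against C/+ (log2FC -5.46, SE 1.19, edgeR adjusted p = 0.0202). It had 0 and 2 counts in C/C, 7 to 52 in C/+ and 3 to 22 in WT, so that the size of the fold is not measured. DESeq2 called 2 lower in C/C against C/+, Cd40 and Cd274. In the comparisons with WT 0 of 3 were called by edgeR or DESeq2, with 2 (C/+) and 1 (C/C) unadjusted p-values under 0.05.

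Markers of the cells best known for class II were in part at or near 0 and in part measured. Of 7 dendritic cell markers, 6 (Itgax, Flt3, Xcr1, Clec9a, Cd209a and Ccr7) were under 1 CPM in all 8 libraries, and Cd209a had no count in any. Of the B cell markers, Cd79a, Ms4a1, Pax5 and Cr2 were under 1 CPM in all, and of 8 macrophage markers 4 (Adgre1, Marco, Siglecf and Itgam). The rest included Cd79b at 18.8 to 29.0 CPM, Cd68 at 5.84 to 12.6 CPM and Csf1r at 3.29 to 6.46 CPM over the 8 libraries, and Zbtb46, which endothelial cells also express, at 5.55 and 5.24 CPM in C/C, 4.59 to 11.1 CPM in C/+ and 4.93 to 9.38 CPM in WT. Summed levels were 5.42 to 5.74 CPM in C/C, 4.71 to 11.6 CPM in C/+ and 5.73 to 10.1 CPM in WT for dendritic cells, 26.6 to 29.2, 26.3 to 27.7 and 19.5 to 27.8 CPM in the same order for B cells, and 16.7 to 17.7, 14.5 to 16.9 and 12.9 to 17.2 CPM for macrophages. None of the tested markers, 2, 1 and 5 of the lists, was called in any comparison by edgeR or DESeq2; the dendritic cell list had 1 unadjusted p under 0.05 for C/+ against WT and the macrophage list 1 for C/C against WT. The gate gene Epcam stood at 177 and 184 CPM in C/C, 157 to 202 CPM in C/+ and 157 to 181 CPM in WT. It was listed with Ptprc and the epithelial genes Cdh1, Krt8 and Krt18, which the sort did not use. By edgeR 1 of these 5 was called, Krt8, higher in C/C (adjusted p = 0.00582 against C/+ and 0.0242 against WT). Krt8 had 219 and 186 CPM in C/C, 96.5 to 123 CPM in C/+ and 92.7 to 127 CPM in WT. Krt18 had log2FC of 0.66 and 0.75 in the same comparisons (edgeR adjusted p = 0.138 and 0.0994). DESeq2 and the edgeR fit with sex as covariate each called both Krt8 and Krt18 higher there. For C/+ against WT 0 were called by edgeR, with 1 unadjusted p under 0.05. DESeq2 and the fit with sex as covariate each called 1 lower, Cdh1.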

How the data were processed

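RNA was sequenced from sorted EpCAM+CD45- lung cells as stranded mRNA libraries, per the labels' protocols. The authors deposited whole-number read counts per gene, not normalised. Per the submitters' processing notes, STAR 2.4.2a and DESeq2 were used, without stated roles, and the build was GRCh38, a human build, whereas the identifiers are those of mouse genes. How reads were counted, with which strand setting, is not given in the sources used here. Symbols, positions and exon lengths came from GENCODE M21 on GRCm38 (42462 identifiers with a symbol, 970 without), and promoter windows from RefSeq.

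Columns were matched to samples by name. Genes passing filterByExpr (14906) were scaled by TMM and fitted in 1 edgeR 4.0.16 quasi-likelihood model (R 4.3.3) of all 8 libraries with a mean per group. All 3 pairs of groups were compared with two-sided tests, p-values were adjusted by Benjamini-Hochberg over all tested genes, and an adjusted p under 0.05 was a call. All 8 members passed the filter. At 17057216 to 52319957 counts per library the spread between libraries exceeded counting error for H2-Aa, H2-Ab1, H2-Eb1 and Cd74, but not for Ciita in C/C, where the CV was 2.30%, and H2-DMb2 rests on few counts. Libraries of a group differed by more than sampling noise (chi-square averaged over genes of 12.2 to 73.5, the range over pairs of libraries of a group).

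The members and the gene lists were chosen with earlier results of these data known. Of each list up to 4 called genes, or up to 2 where none was called, were to be named with values; other genes of the lists were named in addition after their values were seen, and some list genes are not reported here. Alternatives were other filters and scalings (DESeq2 1.42.0 size factors, scaling by 12 alveolar type 2 markers), the DESeq2 Wald test, the 2 compared groups alone, a replicate block, sex read from Xist and Y-linked counts as covariate, other gene lengths, and leaving out each library. Female libraries alone and the contrast of sexes were added after the data were seen.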

Additional observations from a re-analysis of the deposited data

How the results depend on the processing

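Ciita was lower under every alternative run in all 3 comparisons; the sign of several other genes was not stable. The count of all genes called was 585 for C/+ against WT, 1056 for C/C against C/+ and 444 for C/C against WT. It was 1299, 1614 and 1456 with no low-count filter, 1270, 1609 and 1470 with the DESeq2 Wald test, 356 for C/+ against WT with the 2 groups alone, 1700 and 1348 for C/+ and C/C against WT with sex as covariate, 58 for C/+ against WT in female libraries alone, and 176 for C/C against WT with the replicate block. Leaving out 1 library gave 103 (without C/+ 1) to 729, 185 (without C/C 1) to 1308, and 30 (without C/C 1) to 782. It moved by over 1.5 times without C/C 1, C/C 2, C/+ 1, C/+ 2, WT 2 or WT 3 in C/+ against WT, without C/C 1 or C/C 2 in C/C against C/+, and without C/C 1, C/C 2, C/+ 2, C/+ 3, WT 2 or WT 3 in C/C against WT. Calls split into 510 higher and 75 lower, 261 and 795, and 241 and 203 in the same order; scaling by type 2 markers shifted the median of all genes to 0.04, -0.11 and -0.09 and split those of C/C against C/+ as 112 and 880 and those of C/C against WT as 129 and 195. With sex as covariate C/+ against WT split as 1047 and 653, and with the replicate block C/C against C/+ split as 128 and 671 and C/C against WT as 73 and 103.

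Of the 8 class II genes 1 was called in each comparison. For C/+ against WT it was 2 with no filter and 2 with DESeq2 (H2-DMb2 in addition), and 0 with the 2 groups alone, with the replicate block and in female libraries. For C/C against C/+ it was 0 with the block, 5 with sex as covariate and 2 in female libraries. Leaving out 1 library gave 0 to 1 in each. Whether replicate numbers pair libraries could not be decided. Same-numbered libraries of C/+ and WT correlated at -0.21, -0.05 and -0.06 in their deviations from the group means. Those of C/C and C/+ correlated at 0.087 and -0.044, and those of C/C and WT at -0.086 and -0.026. Each same-numbered pair of C/+ and WT held a male and a female library. In groups this small, deviations from the mean also offset each other. In the fit with the replicate block Ciita stood at -0.52 and -0.53 for C/+ against WT and C/C against C/+ (edgeR adjusted p = 0.0649 and 0.0803).

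Signs that turned were these. For C/+ against WT, sex as covariate and female libraries gave 0.002 and 0.031 for H2-DMa, and 0.052 and 0.167 for H2-DMb1. For C/C against C/+, H2-DMb1 was at -0.013 with a filter of 1 CPM in 5 libraries, -0.079 with scaling by type 2 markers and -0.029 with the block. For C/C against WT, sex as covariate and female libraries gave 0.317 and 0.35 for H2-Aa, 0.365 and 0.461 for H2-Ab1, 0.283 and 0.321 for H2-Eb1, 0.267 and 0.308 for H2-DMa, and 0.285 and 0.384 for H2-DMb1. Leaving out 1 library gave -0.363 to 0.072 and -0.213 to 0.194 for H2-DMb1 in C/+ against WT and C/C against C/+. In C/C against WT it gave -0.179 to 0.114 for H2-Aa, -0.241 to 0.076 for H2-Ab1, -0.286 to 0.091 for H2-Eb1, -0.179 to 0.059 for H2-DMa and -0.36 to 0.015 for H2-DMb1. The cause of these turns was not tested. Depth limits H2-DMb2 and the genes near 0.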
